A study of Mus musculus with 30 samples.

Results

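The 9 genes described here, Tmem119, Cx3cr1, Csf1r, Siglech, Fcrls, Selplg, Olfml3, Cst3 and Ltc4s, encode surface receptors, secreted proteins and a membrane enzyme that mark resting microglia, the resident macrophages of the brain. They were followed through lists of chromatin regions that the authors called specific to microglia with or without the microRNA gene Mir137. Every listed region was taken that overlapped a gene's RefSeq span extended by 10 kb, or whose midpoint had an end of the gene as the nearest protein-coding gene end within 100 kb. This gave 42 regions of 22399 in all, and each of the 9 genes had at least 2.

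The controls, cWT, were Mir137+/+;Tmem119-CreERT2 mice, and the knockouts, cKO, were Mir137loxP/loxP;Tmem119-CreERT2 mice, both of strain C57BL/6J and labelled 8 weeks old. Tamoxifen was given to both genotypes on 7 consecutive days, so both carried the Cre allele and both received the drug. Microglia were sorted, at about 100000 cells per genotype, and profiled by CUT&Tag, where a transposase tethered through an antibody cuts and tags nearby DNA. The 30 samples fall into 10 groups of 3 replicates, 2 genotypes by 5 antibodies: H3K27ac, a histone acetylation found at enhancers and promoters in use; H3K4me3, a histone methylation typical of promoters; Pu.1, the myeloid transcription factor encoded by Spi1; Pol II, the polymerase of messenger RNA; and its form phosphorylated on serine 5 of the tail (Ser5P), seen near gene starts. The series text mentions 4 mice, and whether replicates came from separate mice is not stated. Cre is expressed through Tmem119, which is also 1 of the 9 genes, and no source used here says how that allele was built, so the state of Tmem119 in these mice cannot be compared with an unmodified locus.

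Microglia hold their resting state through signals received at the surface: Csf1r receives Csf1 and Il34 and is needed for survival, and Cx3cr1 receives Cx3cl1, the fractalkine made by neurons. Pu.1 binds purine-rich DNA with a GGAA centre and takes part in switching on many genes of this lineage. Tmem119, Siglech, Fcrls and Olfml3 are widely used to tell microglia from other macrophages, and many such genes are known to need TGF-beta signalling. A microRNA binds RNA through its seed, the bases 2 to 8 from its 5' end. The mature miR-137-3p is shown because its gene is the one targeted, with the seed in capitals.

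miR-137-3p: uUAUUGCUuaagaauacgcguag

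No listed region lay within 10 kb of Mir137 itself (chromosome 3, 118433857 to 118433929). The nearest was 1074 kb away, so the lists hold no check of the deletion and the genotypes are as labelled. The data are 10 lists, 1 per genotype and antibody, with no value per replicate. No difference below could be set against the spread between samples, and no test of a genotype difference was possible. A gene missing from a list may be occupied equally in both genotypes or in neither. Read depth is unknown. In sorted cells profiled in bulk, fewer cells with a mark and less of the mark per cell cannot be told apart. In the labels' protocol the acetylation antibody and both polymerase antibodies carry 1 shared catalogue number, and those for H3K4me3 and Pu.1 share another. Of the markers checked, all 8 for microglia had a listed region, against 1 of 8 for neurons, 3 of 8 for astrocytes, 3 of 8 for monocytes and neutrophils, 4 of 8 for endothelium and mural cells, and 5 of 8 each for oligodendrocytes and border-associated macrophages. Over all 21887 placed protein-coding genes the share with a region in any list was 49.6%, and the part of other cell types in the results was not tested.

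At these 9 genes, H3K27ac regions were listed almost entirely for cWT, and Pu.1 and Ser5P regions for cKO alone. H3K27ac gave 13 regions, 12 in the cWT list and 1 in the cKO list. Pol II gave 8, of which 6 were in the cKO list, and Ser5P gave 11, all in the cKO list. Pu.1 gave 4, all in the cKO list. H3K4me3 was split evenly, with 3 regions in each list, and these 6 regions lay at 6 different genes. Without regions under 300 bp the H3K4me3 split was 1 cKO to 3 cWT. The grid of counts by gene and list shows that Csf1r and Selplg had the most regions, 7 each, followed by Cx3cr1 and Siglech with 6, Ltc4s with 5, Olfml3 with 4, Tmem119 with 3, and Fcrls and Cst3 with 2.

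**Figure D1:**
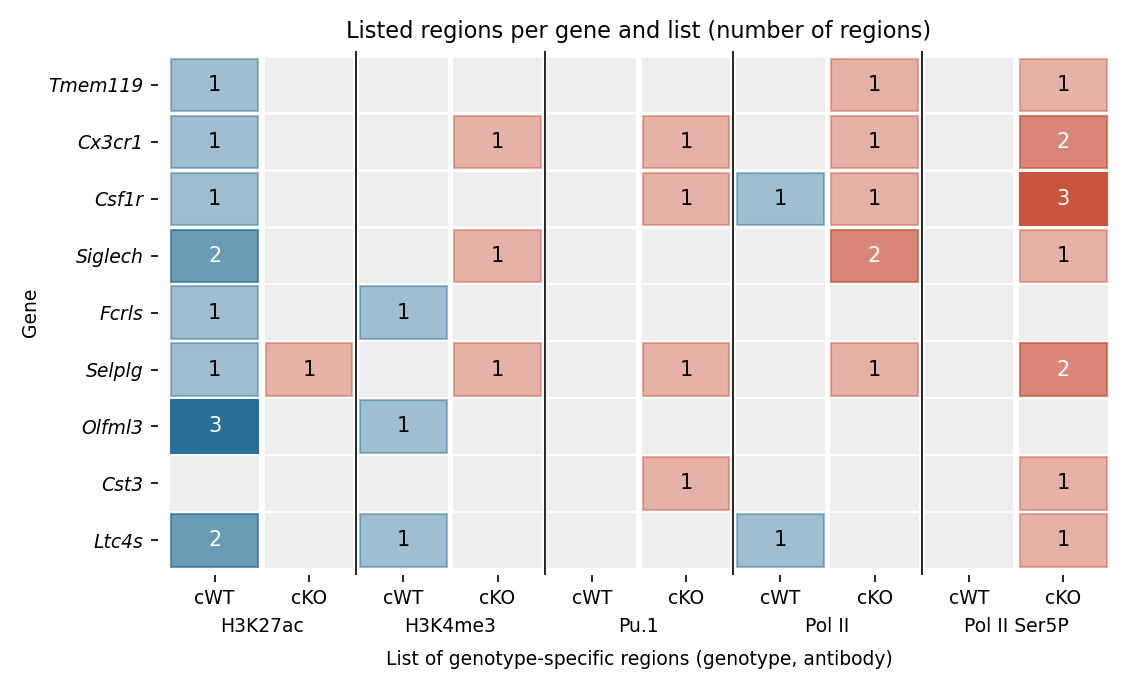
Number of listed regions per gene (rows) in each of the 10 lists (columns, genotype within antibody); blue cells are cWT lists, red cells are cKO lists, grey cells hold no region. H3K27ac fills the cWT column at 8 of the 9 genes, and Ser5P fills the cKO column at 7.

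These directions were those of the lists as a whole. The cKO share of H3K27ac regions was 7.69% at the 9 genes (1 of 13, exact Clopper-Pearson 95% interval 0.195 to 36.0%) and 10.8% over all listed regions. For Pol II it was 75.0% (6 of 8, interval 34.9 to 96.8%) against 92.2% overall. For Ser5P it was 100.0% (11 of 11, interval 71.5 to 100.0%) against 98.0%, and for Pu.1 100.0% (4 of 4, interval 39.8 to 100.0%) against 95.9%. For H3K4me3 it was 50% (3 of 6, interval 11.8 to 88.2%) against 61.5%. Each interval covers counting of regions only and includes the overall share, so at this number of regions no departure of the 9 genes from the lists' own imbalance was detectable.

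How often the genes appeared in a list is a separate measure from the direction. In the cWT H3K27ac list 8 of the 9 genes had a region, all except Cst3, where the same rule found one at 26.1% of all protein-coding genes. In the cKO H3K27ac list only Selplg did, against 4.31% of all genes. The cKO Pu.1 list held Cx3cr1, Csf1r, Selplg and Cst3, 4 of 9 against 4.96% of all genes, and the cWT Pu.1 list none, against 0.187%. The cKO Ser5P list held 7 of 9, all except Fcrls and Olfml3, against 27.9%, and the cWT Ser5P list none, against 0.722%. The cKO Pol II list held Tmem119, Cx3cr1, Csf1r, Siglech and Selplg, 5 of 9 against 22.4%, and the cWT Pol II list Csf1r and Ltc4s, 2 of 9 against 2.16%. The cKO H3K4me3 list held Cx3cr1, Siglech and Selplg, 3 of 9 against 8.47%, and the cWT H3K4me3 list Fcrls, Olfml3 and Ltc4s, 3 of 9 against 5.62%. The 9 genes were thus listed at a higher rate than the average gene in 8 of the 10 lists. For cKO H3K27ac this rests on Selplg alone. For cWT Pol II it rests on Ltc4s and on Csf1r, the latter through a region over the neighbour Hmgxb3. The 51 other homeostatic, receptor and ligand genes were also listed above the average gene in every list except cWT Pu.1. For cWT Ser5P this rests on 1 gene of the 51. Some regions were counted at more than 1 of these 51 genes. Both gene sets were chosen with earlier results of these data known. The median span was 11295 bp for the 9 genes, 25922 bp for the 51 other genes and 17169 bp for all. Expression was not measured here, and the part of expression or gene length in these rates was not tested.

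**Figure D2:**
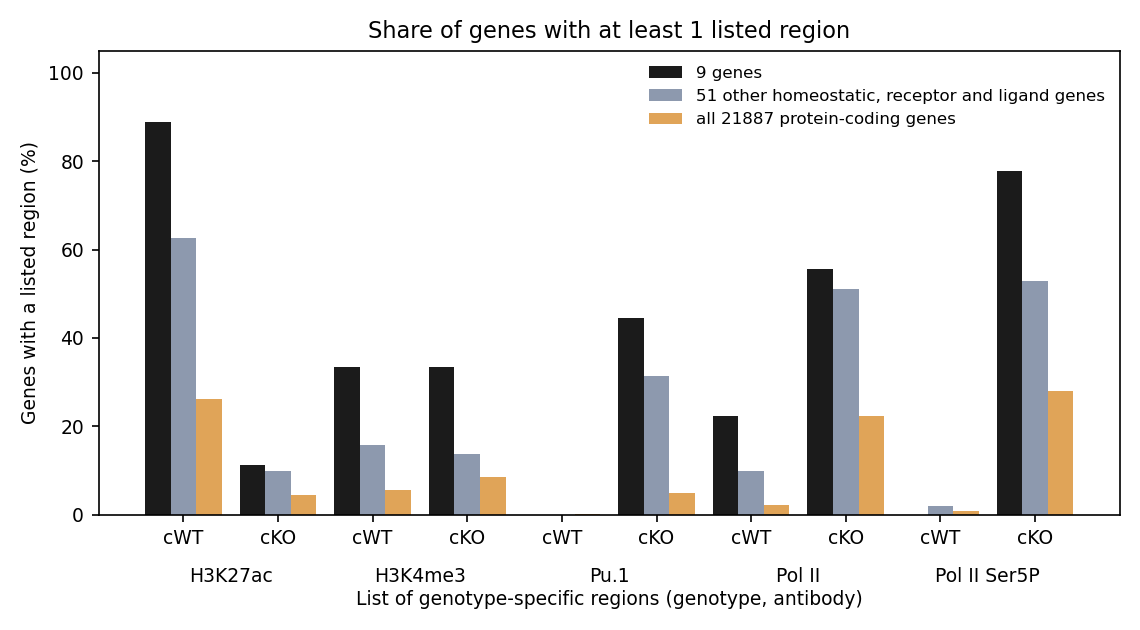
Percentage of genes with at least 1 region in each list, for the 9 genes, for 51 other homeostatic, receptor and ligand genes, and for all 21887 protein-coding genes. The bars of the 9 genes reach 88.9% for cWT H3K27ac and 77.8% for cKO Ser5P, and are at 0 for the cWT lists of Pu.1 and Ser5P.

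At 6 of the 9 genes, Tmem119, Cx3cr1, Csf1r, Siglech, Selplg and Ltc4s, an H3K27ac region was listed for cWT and a Pol II or Ser5P region for cKO. The cWT H3K27ac list held 8 of the 9 genes and the cKO Ser5P list 7, among them every gene of the cKO Pol II list. At least 6 genes therefore had to show both, and the count adds nothing to those listing rates. The same combination was found at 15.9% of all protein-coding genes, and at 12.1% of those with a span no longer than 25568 bp, the span of Csf1r, the longest of the 9. It held at 26 of the 51 other homeostatic, receptor and ligand genes. Fcrls and Olfml3 had the acetylation without a listed polymerase region, and Cst3 had Ser5P without H3K27ac. At Cx3cr1, Csf1r and Selplg every cKO polymerase region lay outside the span, and those of Selplg were nearest to the neighbour Coro1c. The regions of the combination seldom lay on the same bases. Of the 12 cWT H3K27ac regions at the 9 genes, 1 overlapped a cKO Pol II region (at Siglech) and 1 a cKO Ser5P region (at Tmem119), against 9.96 and 10.3% of all cWT H3K27ac regions.

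Cx3cr1, the fractalkine receptor (chromosome 9, 120048683 to 120068296, read on the minus strand), was the only gene of the 9 with Pu.1 and H3K4me3 regions on the same bases. Its Pu.1 region of the cKO list, at 120068265 to 120068617, covered the RefSeq start site at 120068296. The H3K4me3 region of the cKO list, 187 bp wide at 120068319 to 120068505, lay wholly inside the Pu.1 region and ended 23 bp before the start. Over all cKO Pu.1 regions, 5.41% overlapped a cKO H3K4me3 region. The promoter, 250 bases before to 50 after the start, is shown because both regions lie on it. The Pu.1 region covers bases 1 to 282 and the H3K4me3 region bases 42 to 228.

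Cx3cr1 promoter, chr9:120068247-120068546, minus strand: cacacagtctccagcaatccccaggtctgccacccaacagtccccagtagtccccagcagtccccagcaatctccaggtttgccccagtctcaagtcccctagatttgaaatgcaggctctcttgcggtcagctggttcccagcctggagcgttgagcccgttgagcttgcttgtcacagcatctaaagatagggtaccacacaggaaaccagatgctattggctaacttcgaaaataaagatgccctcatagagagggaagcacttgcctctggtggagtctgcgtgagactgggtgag

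In this and the promoters below, from RefSeq on GRCm38.p6 and listed there for 6 of the 9 genes, capitals mark GAGGAA, a short core of the PU.1 motif, searched on both strands (TTCCTC when it lies on the other strand). The Cx3cr1 window holds no such match. The other Cx3cr1 regions lay away from the start. A Ser5P region of the cKO list stood 1711 bp upstream, at 120070007 to 120070323. Beyond the far end of the gene came a cKO Pol II region 2.11 kb outside the span (120046244 to 120046573), a cWT H3K27ac region 4.93 kb outside (120043192 to 120043755) and a second cKO Ser5P region 10.6 kb outside (120037634 to 120038074). Cx3cr1 thus had its cKO promoter regions at the start and its single cWT region beyond the opposite end. None was in the 50% of its list with the lower deposited p-values, and the ranks ran from 2760 of 4647 for Pol II to 5652 of 6163 for the upstream Ser5P region.

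Csf1r, the receptor tyrosine kinase for Csf1 and Il34 (chromosome 18, 61105572 to 61131139), held the best-ranked Pu.1 region of the 9 genes. That region, 398 bp wide at 61108320 to 61108717 inside the gene, was 108th of 1017 in the cKO Pu.1 list, with a deposited p-value of 0.344. An intronic enhancer of Csf1r is known, and whether this region lies on it was not determined, since the annotation used has no introns. An H3K27ac region of the cWT list, at 61105551 to 61106051, covered the lower-coordinate end of the gene. Below that end lay a Pol II region (61098972 to 61099276) beside a Ser5P region (61099282 to 61099896), both of cKO lists, 6.30 and 5.68 kb outside the span. They did not overlap each other. The remaining 3 regions lay beyond the upper end, in the span of the neighbour Hmgxb3. At 61132146 to 61132435 a Pol II region was listed for cWT, and a Ser5P region at 61132153 to 61132453, overlapping 97.6% of the shorter of the pair, was listed for cKO. Another cKO Ser5P region followed at 61134089 to 61134735. Without the regions over Hmgxb3, Csf1r kept 4 of its 7 regions and had none in the cWT Pol II list.

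Tmem119, a transmembrane protein used as a microglial marker (chromosome 5, 113793729 to 113800396), had its H3K27ac and Ser5P regions at the upper-coordinate end of the gene. The H3K27ac region of the cWT list lay at 113800078 to 113800361, and the Ser5P region of the cKO list at 113800224 to 113800806. They shared 138 bp, 48.6% of the shorter one. The third region, cKO Pol II at 113783545 to 113783917, was 9.81 kb outside the span, just inside the 10 kb limit, and nearer to an end of Iscu, an iron-sulfur cluster scaffold gene. Tmem119 therefore had a single polymerase region nearest to its own end. None of its 3 regions was in the 50% of its list with the lower p-values.

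Selplg, which encodes the P-selectin ligand PSGL-1 and lies on the same chromosome (113817798 to 113832528), was the only one of the 9 with H3K27ac regions in both lists. The cWT region, at 113830100 to 113830442, ranked 1844th of 6995. The cKO region, at 113824508 to 113824831, ranked 765th of 847, and the 2 regions lay inside the gene without overlap. Between them was a cKO H3K4me3 region, at 113828676 to 113828953. The other 4 Selplg regions formed a cluster 9.15 to 9.52 kb above the gene: cKO Ser5P at 113841675 to 113841957 and 113841958 to 113842281, cKO Pu.1 at 113841793 to 113842276, and cKO Pol II at 113842048 to 113842368. The Pu.1 region overlapped the Pol II and both Ser5P regions. This cluster is nearest to an end of Coro1c, a gene for an actin-binding coronin (623 to 231 bp from the region midpoints), and none of it is nearest to Selplg. Counted by the nearest end alone, Selplg had 3 regions and none of Pu.1, Pol II or Ser5P.

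**Figure D3:**
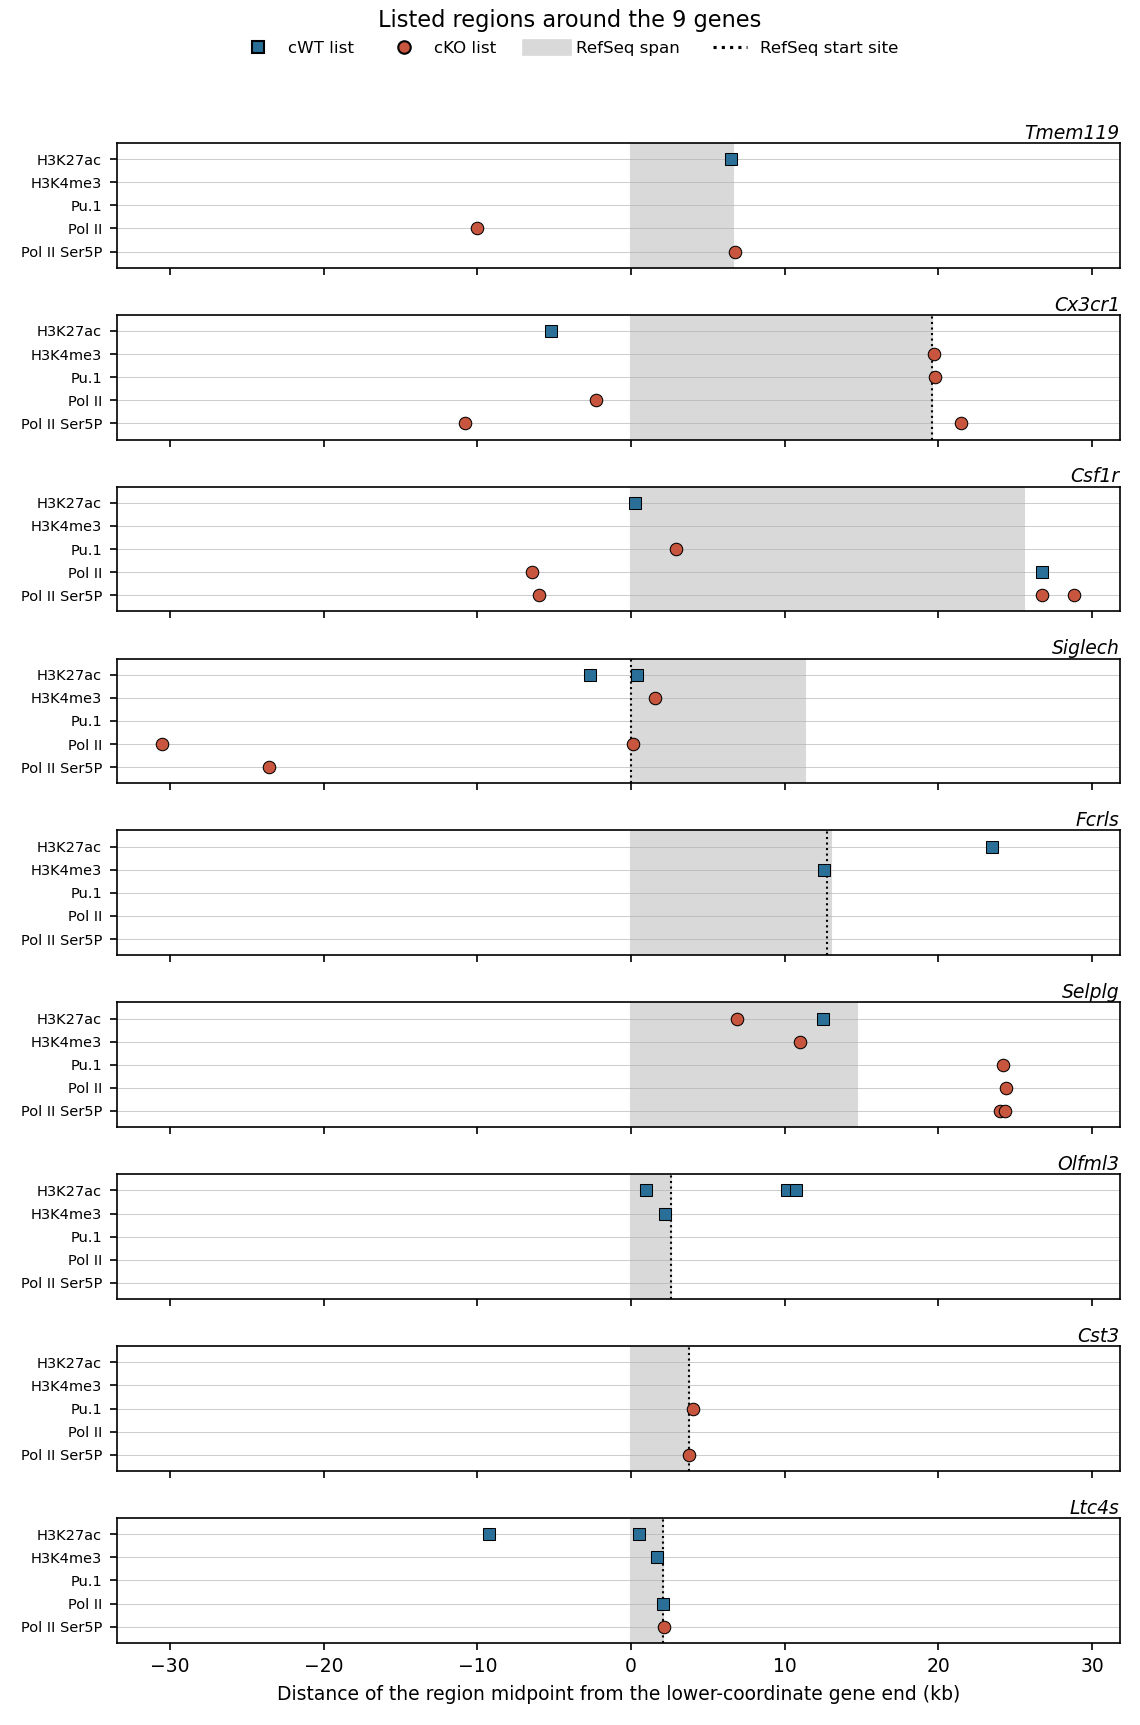
Midpoints of the 42 listed regions (points) against distance in kb from the lower-coordinate end of each gene, with 1 panel per gene and 1 row per antibody; squares are cWT lists, circles cKO lists, the grey band is the RefSeq span and the dotted line the RefSeq start site where it is listed. Regions crowd at the start of Cst3 and Ltc4s, while those of Selplg for Pu.1, Pol II and Ser5P lie together more than 9 kb above the gene.

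Siglech, a sialic acid-binding lectin of the microglial surface (chromosome 7, 55768154 to 55779448, plus strand), carried opposite lists over its start. An H3K27ac region of the cWT list at 55768138 to 55768891 and a Pol II region of the cKO list at 55768159 to 55768457 both covered the RefSeq start at 55768184, with the second wholly inside the first. The Pol II region ranked 1308th of 4647 and the H3K27ac region 4502nd of 6995. An H3K4me3 region of the cKO list followed 1311 bp into the gene, at 55769495 to 55769960. A second cWT H3K27ac region lay 2390 bp upstream, at 55765230 to 55765794. Upstream of the gene, 30.3 and 23.4 kb from the span, the cKO lists held another Pol II region (55737476 to 55737813) and a Ser5P region (55744491 to 55744713), the most distant of the 42. The promoter is shown because the opposed regions meet on it. The H3K27ac region covers bases 205 to 300 and the Pol II region bases 226 to 300.

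Siglech promoter, chr7:55767934-55768233, plus strand: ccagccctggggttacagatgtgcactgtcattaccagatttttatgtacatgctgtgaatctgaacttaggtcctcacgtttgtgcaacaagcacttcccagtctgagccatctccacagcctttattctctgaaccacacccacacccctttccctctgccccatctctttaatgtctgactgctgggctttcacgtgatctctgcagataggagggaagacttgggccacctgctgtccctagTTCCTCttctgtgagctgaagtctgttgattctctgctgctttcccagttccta

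The capitals at bases 247 to 252 mark the PU.1 core on the other strand, across the start itself. Siglech had no listed Pu.1 region in either genotype.

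Fcrls, an Fc receptor-like protein (chromosome 3, 87250736 to 87263765, minus strand), had regions in the cWT lists only. Its H3K4me3 region, 677 bp wide at 87262953 to 87263629, covered the RefSeq start at 87263524 and ranked 129th of 834. The H3K27ac region lay 10.2 kb upstream of the span, at 87273993 to 87274415, and ranked 6492nd of 6995. It was counted because the Fcrls end was the nearest coding gene end. No polymerase or Pu.1 region of either genotype was listed. The H3K4me3 region covers bases 146 to 300 of the promoter, which is shown for that reason.

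Fcrls promoter, chr3:87263475-87263774, minus strand: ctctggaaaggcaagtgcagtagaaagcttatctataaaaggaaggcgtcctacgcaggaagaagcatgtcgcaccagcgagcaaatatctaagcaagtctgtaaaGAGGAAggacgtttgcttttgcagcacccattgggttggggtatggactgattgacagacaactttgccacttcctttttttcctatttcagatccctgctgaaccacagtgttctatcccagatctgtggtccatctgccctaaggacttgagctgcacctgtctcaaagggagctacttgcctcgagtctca

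The PU.1 core, at bases 107 to 112, stands outside the H3K4me3 region, on the upstream side.

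Olfml3, a secreted olfactomedin-like glycoprotein (chromosome 3, 103735394 to 103738001, minus strand), resembled Fcrls in having cWT regions only, in the same 2 lists. Its H3K4me3 region, at 103737297 to 103737862, began 139 bp after the RefSeq start and ranked 259th of 834. An H3K27ac region lay inside the gene at 103736205 to 103736586. A further pair of H3K27ac regions, at 103745306 to 103745733 and 103745968 to 103746265, fell within 10 kb but inside the neighbouring kinase gene Hipk1, to whose end they were nearer. They ranked 6370th and 6904th of 6995. Without that pair Olfml3 had 2 regions. Over all protein-coding genes, 135 others, Olfml3 included, had exactly the lists of Fcrls.

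Cst3 encodes cystatin C, a secreted inhibitor of cysteine proteases (chromosome 2, 148871722 to 148875512, minus strand). It differed from the other 8 genes in having no H3K27ac region by the rule used. A cWT H3K27ac region 14.5 kb from its span, 2340th of 6995, was not counted. Both regions counted at Cst3 were in cKO lists and lay at the start. The Ser5P region, at 148875286 to 148875676, covered the RefSeq start at 148875512 and ranked 2234th of 6163. The Pu.1 region, at 148875544 to 148876014, began 32 bp upstream of the start and ranked 238th of 1017. They shared 133 bp. Overlap of this kind was found for 30.0% of all cKO Pu.1 regions. On the promoter, shown because Pu.1 and polymerase meet there, the Pu.1 region covers bases 1 to 219 and the Ser5P region bases 87 to 300.

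Cst3 promoter, chr2:148875463-148875762, minus strand: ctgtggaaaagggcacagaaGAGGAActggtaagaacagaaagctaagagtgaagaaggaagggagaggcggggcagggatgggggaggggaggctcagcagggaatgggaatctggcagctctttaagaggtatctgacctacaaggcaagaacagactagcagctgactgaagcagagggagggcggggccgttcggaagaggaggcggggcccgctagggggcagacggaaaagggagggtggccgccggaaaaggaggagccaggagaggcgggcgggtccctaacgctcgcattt

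The PU.1 core at bases 21 to 26 lies within the listed Pu.1 region and outside the Ser5P region. Cst3 was the only one of the 6 genes with a listed promoter that had both a Pu.1 region and a GAGGAA match there.

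Ltc4s, leukotriene C4 synthase, a membrane enzyme of leukotriene production (chromosome 11, 50236461 to 50238532, minus strand), had polymerase regions in opposite lists over a shared start. A Pol II region of the cWT list at 50238314 to 50238800 and a Ser5P region of the cKO list at 50238338 to 50238887 both covered the RefSeq start at 50238532 and shared 463 bp, 95.1% of the shorter one. Their places in the lists differed: the cWT Pol II region was 375th of 394 and the cKO Ser5P region 2195th of 6163. A cWT H3K4me3 region at 50237823 to 50238492, which was 86th of 834, began 40 bp after the start and overlapped both. An H3K27ac region of the cWT list lay inside the gene at 50236844 to 50237155, 880th of 6995 and the best-ranked H3K27ac region of the 42. Another cWT H3K27ac region, at 50226964 to 50227442, fell in the neighbour Mgat4b, a glycosyltransferase gene. The promoter is shown because the Pol II and Ser5P regions each cover all 300 bases, and the H3K4me3 region bases 291 to 300.

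Ltc4s promoter, chr11:50238483-50238782, minus strand: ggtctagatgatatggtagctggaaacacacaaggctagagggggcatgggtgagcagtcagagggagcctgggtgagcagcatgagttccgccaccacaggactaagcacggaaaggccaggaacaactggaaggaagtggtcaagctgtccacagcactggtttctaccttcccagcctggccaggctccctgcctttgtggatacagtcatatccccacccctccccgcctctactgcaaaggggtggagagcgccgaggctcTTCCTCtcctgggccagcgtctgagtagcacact

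The capitals at bases 267 to 272, just after the start, mark the PU.1 core on the other strand. Ltc4s, like Siglech and Fcrls, had no listed Pu.1 region. The pairing of cWT Pol II with cKO Ser5P at Ltc4s and beside Csf1r covered both of the cWT Pol II regions counted at the 9 genes. It was common in the whole list, where 191 of 394 cWT Pol II regions, 48.5%, overlapped a cKO Ser5P region.

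Across the 6 listed promoters, GAGGAA or its reverse complement was found in 4 (Siglech, Fcrls, Cst3 and Ltc4s), and in 27.4% of 21263 promoters of protein-coding genes of the same length. The longer form GAGGAAGT, which contains it, was in none of the 6 and in 3.13% of all. CAGACA, a SMAD motif, was in Siglech and Fcrls and in 18.9% of all. TTGCNNAA, a C/EBP motif, was in Siglech and in 10.2% of all. The AP-1 motif TGANTCA (6.99% of all), the IRF motif GAAANNGAA (8.15%) and the MEF2 motif CTATTTNTA (1.25%) were not in these windows. The complement of the miR-137-3p seed, AGCAATA, was in none of the 6 and in 1.69% of all. These windows lie mostly before the start, and the transcripts that a microRNA binds were not searched. All motifs were searched on both strands. A match is a run of letters and not a measured binding site.

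At the 6 genes with an H3K4me3 region, its list went with the Pol II listing. Cx3cr1, Siglech and Selplg, with H3K4me3 in the cKO list, each had cKO Pol II and cKO Ser5P regions. Fcrls, Olfml3 and Ltc4s, with H3K4me3 in the cWT list, had no cKO Pol II region, and only Ltc4s had cKO Ser5P. This grouping depends on where the window ends. The Selplg polymerase regions were all nearest to Coro1c, and a cKO Pol II region 11.6 kb from Ltc4s was not counted. Of the 3 genes with no H3K4me3 region, Tmem119 and Csf1r had cKO Pol II, and all 3 had cKO Ser5P. The same relation was not seen over all genes: a cKO Pol II region was found at 40.6% of the 1611 genes with H3K4me3 in the cKO list alone and at 41.5% of the 988 with it in the cWT list alone. For cKO Ser5P these shares were 45.1 and 49.0%. All 6 genes with H3K4me3 had cWT H3K27ac, which over all genes was found at 43.0% of those with H3K4me3 in the cKO list alone and at 50% of those with it in the cWT list alone.

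Of the 42 regions, 19 lay inside or touched the gene's span, 19 lay outside within 10 kb and 4 lay farther. H3K4me3 was closest, with 5 of 6 regions inside or touching, and H3K27ac had 7 of 13, Pu.1 2 of 4, Ser5P 3 of 11 and Pol II 2 of 8. At the 6 genes with a listed start, 7 of 25 regions covered it. The regions closest outside the 10 kb limit, not counted, were a cWT H3K27ac and a cKO Pol II region 11.2 and 11.6 kb from Ltc4s and a cKO Pu.1 region 12.9 kb from Tmem119. In all, 11 regions were nearest to an end of another gene, and 6 overlapped the span of one. With those 11 left out, the genes with a region numbered 3 instead of 5 for cKO Pol II, 6 instead of 7 for cKO Ser5P, 3 instead of 4 for cKO Pu.1 and 1 instead of 2 for cWT Pol II, and the counts for H3K27ac and H3K4me3 stayed at 8 and 1, and at 3 and 3.

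All 42 regions had the word secondary in their deposited name, and none had a deposited p-value under 0.05. Both were the usual case: of all 22399 regions, 907 were named primary and 169 had a p-value under 0.05. Their p-values ran from 0.344, at the Csf1r Pu.1 region, to 0.968, with a median of 0.865 against 0.791 for all regions. This p-value was identified by its position in the deposited line, and no source used here says what it tests. It was used only to rank or filter regions within a list. By that rank 13 of the 42 were in the 50% of their list with the lower p. The H3K4me3 regions divided by genotype: those of the cWT list stood at 10.3, 15.5 and 31.1% of their list from the top (Ltc4s, Fcrls and Olfml3), and those of the cKO list at 67.0, 87.5 and 93.4% (Siglech, Cx3cr1 and Selplg). The Pu.1 regions of Csf1r and Cst3 stood at 10.6 and 23.4%, and those of Selplg and Cx3cr1 at 77.2 and 84.3%. Among Pol II regions the cluster above Selplg ranked first, at 11.7%, ahead of the Siglech start at 28.1%. Ranks in different lists are not comparable as levels, since the lists differ in length and content.

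**Figure D4:**
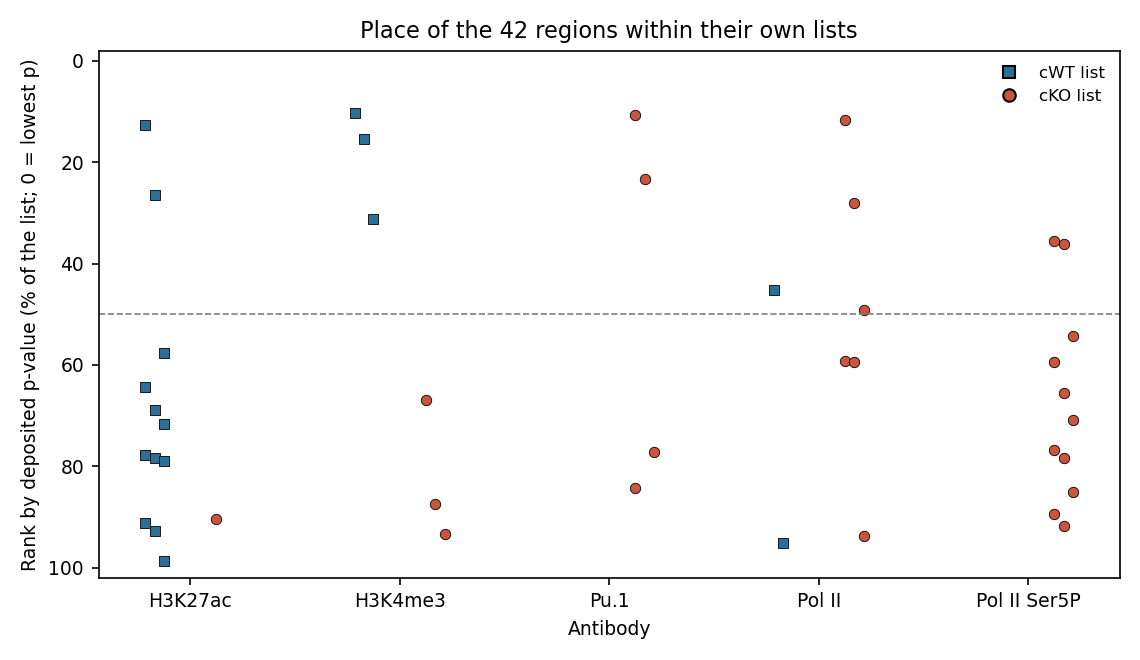
Place of each of the 42 regions within its own list, ranked by the deposited p-value and given in percent (0 is the lowest p, at the top), by antibody; squares are cWT lists and circles cKO lists, and the dashed line is at 50%. The cWT H3K4me3 regions sit between 10.3 and 31.1%, above the cKO ones at 67.0 to 93.4%, and 11 of the 13 H3K27ac regions lie below the line.

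At the other homeostatic genes, with their ligands and partners, H3K27ac, Pol II, Ser5P and Pu.1 leaned to the same genotype as the whole lists. H3K4me3 did not: slightly more of these genes were in its cWT list, though the whole lists hold 1331 cKO and 834 cWT regions. No interval was computed for these genes, so no direction of their own can be read from them. Of 51 such genes, 32 had a cWT H3K27ac region and 5 a cKO one, against 26.1 and 4.31% of all protein-coding genes. For Pol II, 26 had a cKO and 5 a cWT region, against 22.4 and 2.16%, and for Ser5P 27 and 1, against 27.9 and 0.722%. Pu.1 regions were listed for cKO at 16 and for cWT at none, against 4.96 and 0.187%, and H3K4me3 for cKO at 7 and for cWT at 8, against 8.47 and 5.62%. Those found in 5 or more lists were Entpd1, an ectonucleotidase (15 regions in 6 lists), Mef2c, a transcription factor (16 regions in 5), P2ry12, a purinergic receptor (11 in 5), and Irf8 and Smad3, a myeloid and a TGF-beta pathway transcription factor (6 in 5 each). By the rule used, Selplg, with 6 lists, and Cx3cr1 and Csf1r, with 5 each, appeared in as many lists as these. The Pu.1, Pol II and Ser5P listings of Selplg came only from the cluster nearest to Coro1c. The cWT Pol II listing of Csf1r came only from a region over Hmgxb3. Neighbours of the other genes were not examined. The spans of Selplg, Cx3cr1 and Csf1r are shorter than those of Entpd1, Mef2c, P2ry12 and Smad3, and that of Irf8 lies between those of Cx3cr1 and Csf1r.

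Of 5 ligands and partners, Il34, Cx3cl1 and Selp, which encodes the P-selectin that Selplg binds, had no region in any list. Over all protein-coding genes 49.6% had one, so these 3 are not set apart. Csf1 had a cWT H3K27ac and a cKO Ser5P region, and Tgfb1 had 2 cKO Pol II regions. By region counts over the 10 lists, the gene most like Cx3cr1 was the predicted gene Gm8279, with the same count in every list. Siglech had the same counts as Ctnnbip1, Ddx21 and Rsph3a. The nearest to Csf1r, 1 region apart, were Casc3, Cyth4, Gm3488 and 1 more, and to Selplg, also 1 region apart, were 6 genes, Cep152, Cpped1 and Cx3cr1 among them. Ltc4s had 24 genes at a difference of 1, the first by alphabet being Alkbh7, Anks6 and Cep57. For Tmem119, 321 other genes had identical counts, headed by alphabet by 2610507B11Rik, 4931422A03Rik and 6030458C11Rik.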

How the data were processed

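Each deposited list holds genotype-specific regions for 1 antibody and genotype. The tools named, per the submitters' processing notes, were HOMER 4.11, bedtools 2.30.0, MACS2 2.2.7.1 and Bowtie2 2.4.4, with the builds GRCm38 and mm10. No source used here gives their roles, how replicates were combined or what made a region specific. A deposited line gives a region's position, a score from 1 to 1000, a signal on an unstated scale, and a p-value with its adjusted value. The p-value alone served here, for ranking and filtering inside a list. Neither score nor signal was compared between the authors' lists.

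Lists were matched to groups by the antibody and genotype they are named for, and the samples to groups by their titles. Regions were assigned by the rule in the text, with positions counted from 1 and RefSeq spans of GRCm38.p6, which carry no exons. Start sites and strands came from RefSeq promoters. The rule was tested on simulated regions. The 9 genes and the gene lists were chosen with earlier results of these data known, so no set test was run. Shares have exact Clopper-Pearson 95% intervals for counting error only. Named genes were the 9, those of 51 listed homeostatic, receptor and ligand genes found in at least 5 lists, the ligands Il34, Csf1, Cx3cl1, Selp and Tgfb1, neighbours holding a region, and up to 3 genes with the nearest counts per gene found in at least 3 lists. Alternatives changed the window, overlap, neighbours, width, merging and p-value. Python 3.11.15, numpy 2.4.6, pandas 2.3.3, scipy 1.17.1 and matplotlib 3.10.9 were used.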

Additional observations from a re-analysis of the deposited data

How the results depend on the processing

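The cKO shares at the 9 genes, the count of genes with cWT H3K27ac and cKO polymerase, and the count of overlaps between antibodies were recomputed under the alternatives. Of 49 such values, 46 stayed within the main interval or within 1.5 times the main count, and none that leaned to a genotype changed direction. The H3K4me3 cKO share, 50% (3 of 6), had no lean and became 25.0% (1 of 4) without regions under 300 bp, within its wide interval. The 3 that moved came from keeping the 50% of each list with the lower p, which left 13 regions: the cKO share fell to 0.0% for H3K27ac (0 of 2 regions) and to 0.0% for H3K4me3 (0 of 3), and the count of genes with cWT H3K27ac and cKO polymerase fell from 6 to 2. Fewer regions were tested there, 7 of the 9 genes kept a region, and Tmem119 and Cx3cr1 had none. That count was 5 or 6 under every other alternative run. With an overlap of at least 50% of the shorter region, 8 of the 12 overlaps between antibodies remained. Of 72 counts of regions per gene, 17 moved by over 1.5 times, 8 of them under the lower-p setting. Dropping the 10 kb extension while keeping the nearest-end part left 31 of 42 regions, as did the nearest-end part alone. Only 19 of the 42 lay inside or touched a span. A p-value under 0.05 left none of the 42, so that setting gave no value.

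No paired analysis was possible because the lists carry no replicate, and leaving out a replicate was not possible for the same reason. The small number of regions per antibody, 4 to 13, limits every share.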
